A study of Arabidopsis thaliana with 36 samples.

Results

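Catalases and ascorbate peroxidases are heme enzymes that remove hydrogen peroxide in Arabidopsis thaliana. Their transcripts were followed here in leaves and roots of cadmium-treated wild type and opt3-2 plants. The set holds 9 of the 28775 genes of a read count table, chosen by locus code: the catalases CAT1 (AT1G20630), CAT2 (AT4G35090) and CAT3 (AT1G20620), and the ascorbate peroxidases APX1 (AT1G07890), APX2 (AT3G09640), APX3 (AT4G35000), APX5 (AT4G35970), the stromal enzyme sAPX (AT4G08390) and the thylakoid enzyme tAPX (AT1G77490). All 9 had a row in the table. The 4 groups were leaves (labelled shoots) and roots of the wild type Col-0 and of opt3-2, with 3 biological replicates each, and every plant, wild type included, had spent 72 h in hydroponic medium with 20 µM CdCl2. Before that, seedlings had grown 11 d on plates and 22 d in hydroponics in days with 16 h of light. Each sample pooled RNA from 3 to 4 plants, and all plants were harvested at the same hour of the morning. No untreated plants were analysed here, so no value below measures a response to cadmium.

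The opt3-2 line carries a T-DNA allele of OPT3, a transporter that loads iron into the phloem, and keeps some OPT3 transcript. OPT3 stood at 389, 321 and 352 CPM (read counts normalised to library sizes scaled by TMM factors) in wild type shoots and at 23.4, 17.6 and 24.1 CPM in opt3-2 shoots, and at 38.4, 47.9 and 41.4 CPM against 9.02, 4.55 and 4.13 CPM in roots. Summed counts per library ran from 21262406 to 33221855 in shoots and from 22449113 to 36484138 in roots. Of the labelled tissues, 5 leaf markers (RBCS1A, LHCB2.1, LHCB3, CA1 and PSBO1) summed to 18047 to 21134 CPM in wild type shoots, 22838 to 26405 CPM in opt3-2 shoots and 72.0 to 117 CPM in roots. The 5 root markers (PYK10, CASP1, SHR, SCR and MYB36) summed to 98.4 to 134 CPM in shoots, 3130.5 to 3444 CPM in wild type roots and 2183 to 2376 CPM in opt3-2 roots. PYK10 made up most of the root sums, with means of 3126 CPM in wild type roots and 2139 CPM in opt3-2 roots. CASP1, SHR and MYB36 were also higher in roots. SCR was about as high in shoots as in roots, at 32.2 against 32.5 CPM in wild type and 29.2 against 27.0 CPM in opt3-2.

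Catalase splits hydrogen peroxide into water and oxygen without another substrate and works in peroxisomes, where photorespiration in leaves releases much of the peroxide. Ascorbate peroxidases have a far higher affinity for peroxide and spend ascorbate, which monodehydroascorbate reductases, dehydroascorbate reductases and glutathione reductases regenerate in the ascorbate-glutathione cycle. Both families need iron, as heme, and cadmium is known to raise hydrogen peroxide in plant tissue. CAT2 is the main photorespiratory catalase of leaves, CAT3 is known from vascular tissue and older leaves, and CAT1 from seeds, pollen and responses to abscisic acid. APX1 is the main cytosolic ascorbate peroxidase, APX2 a cytosolic form known for its induction by heat and excess light through heat shock factors, APX3 and APX5 are counted among the peroxisomal forms, and sAPX and tAPX guard plastids, sAPX also mitochondria.

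The members lie on chromosomes 1, 3 and 4, and on TAIR10.1 CAT3 (chr1:7142972-7146540) and CAT1 (chr1:7146636-7150180) are tandem genes on the plus strand with 95 bases between them. The catalases differ from one another in sequence: coding sequences of CAT1 and CAT2 were 80.3% identical, and their longest identical exonic run was 32 bases. No 50-base stretch of any member's exons occurred elsewhere in the nuclear genome. The handling of multi-mapped reads is not named in the sources used here, so how reads were divided between members was not checked. CAT2 has 95 of its 2767 exonic bases under a gene on the opposite strand (AT4G35080) and APX5 has 76 of 1352 under AT4G35980. The use of strand in counting is not given in the sources used here, so reads of those stretches could belong to either gene.

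Upstream sequence is shown for the members whose differences between genotypes were largest (CAT1 and APX2) or ran in opposite directions in shoots and roots (APX1 and CAT2). Each run ends at the base before the annotated gene start and reads 5′ to 3′ on the gene's strand of TAIR10.1 (RefSeq), the minus strand for CAT2 and the plus strand for the others. Capitals mark matches on either strand to a heat shock element of 2 units (GAANNTTC or TTCNNGAA), a G-box (CACGTG) or an abscisic acid response element core (ACGTGG or ACGTGT). The CAT1 run is the whole space between CAT3 and CAT1.
APX2, chr3:2955906-2956155: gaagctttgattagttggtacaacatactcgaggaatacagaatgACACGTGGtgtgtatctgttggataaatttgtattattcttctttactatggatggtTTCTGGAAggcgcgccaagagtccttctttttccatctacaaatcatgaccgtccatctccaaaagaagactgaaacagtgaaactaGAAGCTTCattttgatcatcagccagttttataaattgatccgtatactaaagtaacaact
APX1, chr1:2437031-2437280: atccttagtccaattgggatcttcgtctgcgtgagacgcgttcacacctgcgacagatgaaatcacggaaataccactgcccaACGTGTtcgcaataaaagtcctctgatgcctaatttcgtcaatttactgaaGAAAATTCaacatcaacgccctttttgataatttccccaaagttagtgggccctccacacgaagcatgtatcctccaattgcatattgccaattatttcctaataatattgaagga
CAT1, chr1:7146541-7146635: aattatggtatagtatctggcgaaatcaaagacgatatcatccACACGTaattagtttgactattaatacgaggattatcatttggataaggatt
CAT2, chr4:16703505-16703754: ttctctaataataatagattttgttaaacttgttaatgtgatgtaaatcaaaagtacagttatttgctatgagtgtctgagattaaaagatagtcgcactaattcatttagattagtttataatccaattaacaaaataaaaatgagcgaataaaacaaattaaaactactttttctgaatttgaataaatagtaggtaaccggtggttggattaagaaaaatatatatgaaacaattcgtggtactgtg

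In APX2 the heat shock elements of 2 units lay 148 to 141 and 61 to 54 bases before the gene start, and the G-box, 204 to 199 bases before it, overlapped matches to the abscisic acid core on both sides. APX1 held 1 heat shock element of 2 units and 1 abscisic acid core. Among the members not shown, APX5 also held 1 heat shock element of 2 units. APX3 held 1 G-box in the 115 bases searched upstream of it. Of 27443 protein-coding genes, 16.1% hold the heat shock element of 2 units in their 250 upstream bases, 6.49% the G-box and 16.0% the abscisic acid core. The CAT2 run held none of these. No member held the heat shock element of 3 units (GAANNTTC followed by NNGAA, or TTCNNGAA followed by NNTTC), which 0.386% of such windows do. The CAT1 space held 1 abscisic acid core, as 8.05% of windows of 95 bases do. These matches describe letters and are not binding sites.

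**Figure D1:**
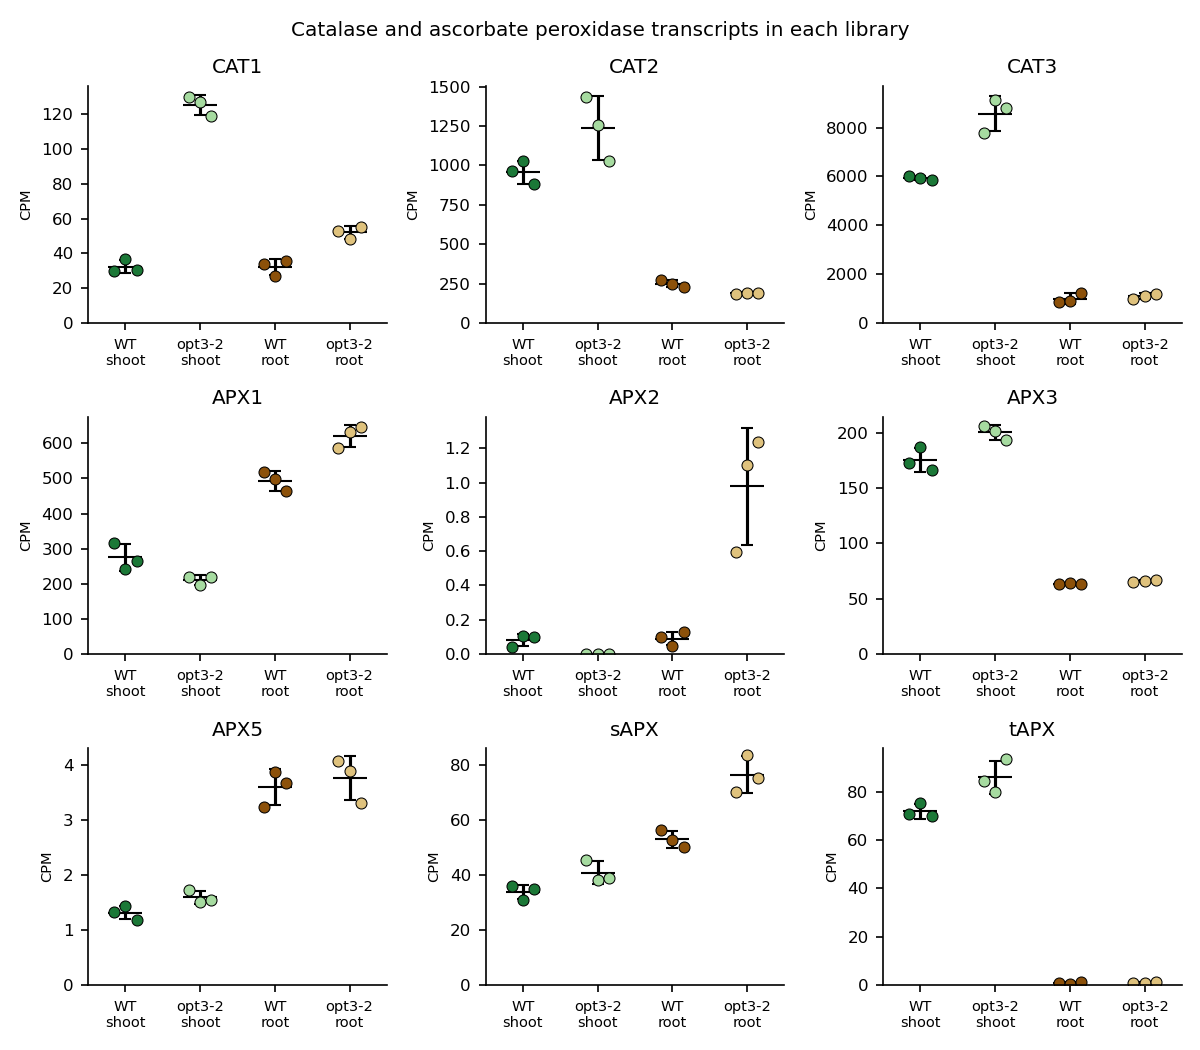
Each panel plots 1 gene, with CPM on a linear axis from 0 and the 4 groups side by side. Points are single libraries, the long bar is the mean of 3 and the whiskers are the SD. CAT1 stood highest in opt3-2 shoots, APX2 above 0.5 CPM only in opt3-2 roots, and tAPX near 1 CPM in both root groups.

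In shoots the comparison asks how the opt3-2 mutation alters these transcripts in cadmium-treated leaves. CAT1, CAT2 and CAT3 were all higher in opt3-2, as were APX3 and sAPX, while APX1, the main cytosolic form, was lower. By the quasi-likelihood test of edgeR across all genes, at a Benjamini-Hochberg adjusted p below 0.05, 5 of 9 members rose, 2 fell (APX1 and the barely detected APX2) and 2 did not pass (APX5 and tAPX). Over all 21887 genes tested, 43.9% were called, 21.3% higher and 22.6% lower. The members' median log2 fold change was 0.27, against 0.00 for all genes. CAT1 was the one member to differ by more than 2-fold among those with over 10 CPM.

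CAT1 stood at 30.0, 36.5 and 30.4 CPM in wild type shoots and at 130.2, 127 and 119 CPM in opt3-2 shoots. The groups were far apart and each was tight. CAT1 rose 3.88-fold (log2 1.96 ± 0.11, SE, n = 3 per group, edgeR adjusted p = 4.88e-07). Its tandem neighbour CAT3 did not rise in proportion: wild type shoots held 0.497 to 0.615 CAT1 counts per 100 CAT3 counts and opt3-2 shoots 1.35 to 1.68.

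CAT3 stood at 6038, 5947 and 5865 CPM in wild type shoots and at 7763, 9131 and 8798 CPM in opt3-2 shoots. No library of one genotype reached the range of the other. CAT3 rose 1.44-fold (log2 0.53 ± 0.14, adjusted p = 0.0105 in edgeR). CAT2 stood at 963, 1026 and 883 CPM in wild type shoots and at 1433, 1255 and 1029 CPM in opt3-2 shoots. The lowest opt3-2 library lay just above the highest wild type library. CAT2 rose 1.29-fold (log2 0.37 ± 0.11, adjusted p = 0.0184 in edgeR), but not without opt3-2 shoot replicate 1 (log2 0.26, adjusted p = 0.0851), without replicate 2 of that group (0.36, 0.0527) or without wild type shoot replicate 3 (0.31, 0.0773).

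APX1 stood at 317, 243 and 266 CPM in wild type shoots and at 218, 196 and 219.6 CPM in opt3-2 shoots. All opt3-2 values were below all wild type values. APX1 fell by 0.38 on the log2 scale (SE 0.10, adjusted p = 0.00668 in edgeR) and stayed called in shoots under all alternatives tried. APX3 stood at 173, 187 and 166 CPM in wild type shoots and at 206, 202 and 193 CPM in opt3-2 shoots. That is a small step with little spread, log2 0.19 ± 0.05 (adjusted p = 0.0119 in edgeR, 0.0600 without wild type shoot replicate 3).

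The plastid forms were both slightly higher in opt3-2 shoots. sAPX stood at 35.9, 31.0 and 35.0 CPM in wild type and at 45.7, 38.1 and 39.1 CPM in opt3-2. The groups did not overlap, and sAPX rose by log2 0.27 ± 0.09 (adjusted p = 0.0292 in edgeR). That call was lost without opt3-2 shoot replicate 1 (log2 0.18, adjusted p = 0.134), wild type shoot replicate 2 (0.21, 0.0979) or wild type shoot replicate 3 (0.29, 0.0563). tAPX stood at 70.5, 75.4 and 69.7 CPM in wild type and at 84.3, 80.0 and 93.4 CPM in opt3-2. The groups did not overlap, yet tAPX missed the threshold (log2 0.26 ± 0.10, 95% interval 0.03 to 0.48, adjusted p = 0.0614). It passed with RLE factors (adjusted p = 0.0324), DESeq2 (0.00661) and limma-voom (0.00993).

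APX5 was low in leaves, at 1.32, 1.43 and 1.19 CPM in wild type shoots and 1.72, 1.51 and 1.54 CPM in opt3-2 shoots. The groups did not overlap, and the difference did not pass (log2 0.28 ± 0.17, interval -0.08 to 0.64). APX2 had 1, 3 and 3 counts in the wild type shoot libraries and 0 in all opt3-2 shoot libraries. A floor of 3 counts per library covers all of these, so no fold is given, and although the fit called APX2 lower (adjusted p = 0.0389), a difference of this kind is not firmly detectable at this depth.

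All 9 members had shoot groups that did not overlap, as had 53.0% of all genes tested. The leaf markers moved with the same contrast: CA1 (log2 0.85 ± 0.25), PSBO1 (0.46 ± 0.14) and LHCB3 (0.46 ± 0.17) were higher in opt3-2 shoots and LHCB2.1 (0.34 ± 0.19) and RBCS1A (0.03 ± 0.17) were not called. Of the root markers PYK10 (-0.40 ± 0.08) and SHR (-0.33 ± 0.09) were lower in opt3-2 shoots and the other 3 were not called. Their part in the rise of CAT2, CAT3, APX3 and sAPX was not tested, and in whole organs fewer cells of a type and less RNA per cell cannot be told apart. Without scaling factors, on library sizes alone, CAT2 (adjusted p = 0.0620), APX3 (0.146) and sAPX (0.148) lost their call in shoots.

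In roots the same question had a different answer for several members. CAT1 again rose, CAT2 fell, CAT3 did not pass, and APX1, sAPX and the scarce APX2 rose. Of 9 members 4 rose, 1 fell and 4 did not pass (edgeR, adjusted p below 0.05). The 4 include APX2, which passed the filter on low counts through opt3-2 roots, so its call is a description. Over all genes 39.0% were called, 17.5% higher and 21.5% lower, and the median log2 fold change was 0.14 for the members and -0.01 for all genes. Of the members, 6 had root groups that did not overlap, as had 53.2% of all genes. Of the root markers PYK10 (-0.55 ± 0.08) and SCR (-0.27 ± 0.07), the latter about as high in shoots, were lower in opt3-2 roots. CASP1, SHR and MYB36 were not called. The part of the markers in the root differences was not tested.

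CAT1 stood at 33.9, 27.0 and 35.7 CPM in wild type roots and at 53.2, 48.1 and 55.2 CPM in opt3-2 roots. Every opt3-2 root lay above every wild type root, and CAT1 rose 1.62-fold (log2 0.70 ± 0.11, adjusted p = 3.80e-04 in edgeR). CAT2 stood at 275, 246 and 230.4 CPM in wild type roots and at 183, 193 and 192 CPM in opt3-2 roots. The groups did not overlap, and CAT2 fell by 0.40 on the log2 scale (SE 0.11, adjusted p = 0.0145, and 0.0551 without wild type root replicate 1).

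CAT3 stood at 849.6, 899.9 and 1242 CPM in wild type roots and at 971, 1123 and 1194 CPM in opt3-2 roots. The groups overlapped because wild type replicate 3 held the highest value of all root libraries. CAT3 did not pass (log2 0.14 ± 0.14, interval -0.17 to 0.45), but rose when wild type root replicate 3 was left out (log2 0.32, adjusted p = 0.0365). That replicate also differs in the run suffix of its columns, a number whose meaning the labels do not state. It carries 2 to 4 and the other wild type roots 5 to 7, while opt3-2 libraries carry 1 to 3. Wild type shoots are split too, with 2 to 4 in replicates 1 and 2 and 5 to 7 in replicate 3. The shoot calls lost without that shoot replicate are given above.

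APX1 stood at 518, 499 and 463 CPM in wild type roots and at 586, 632 and 646 CPM in opt3-2 roots. The groups did not overlap, and APX1 rose by log2 0.33 ± 0.10 (adjusted p = 0.0160 in edgeR, 0.0520 without wild type root replicate 3 and 0.0564 without opt3-2 root replicate 3). sAPX stood at 56.3, 52.7 and 50.1 CPM in wild type roots and at 70.3, 83.7 and 75.4 CPM in opt3-2 roots. It rose 1.44-fold (log2 0.53 ± 0.09, adjusted p = 6.78e-04) and was called in roots under all alternatives.

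APX2 had 4, 2 and 5 counts in the wild type root libraries and 15, 32 and 35 in the opt3-2 root libraries, or 0.0965, 0.0470 and 0.126 CPM against 0.593, 1.10 and 1.24 CPM. All opt3-2 values were well above all wild type values, though both are low. APX2 rose 10.6-fold (log2 3.41 ± 0.43, interval 2.44 to 4.37, adjusted p = 2.26e-04 in edgeR). The ratio of the pooled counts, 82 against 11, was 11.2 with an exact 95% Poisson interval of 5.93 to 23.3, which covers counting error only. APX2 passed the filter on low counts through opt3-2 roots, the group where it is high, so this call is a description of the group in which it could be seen at all.

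APX3 hardly varied in roots, with 63.7, 64.6 and 62.9 CPM in wild type and 65.0, 66.4 and 67.0 CPM in opt3-2. The groups did not overlap but the difference did not pass (log2 0.05 ± 0.05, interval -0.06 to 0.17). APX5 stood at 3.23 to 3.88 CPM in wild type roots and 3.32 to 4.07 CPM in opt3-2 roots, and its groups overlapped (log2 0.07 ± 0.13, interval -0.22 to 0.36). tAPX stood at 0.611 to 1.08 CPM in wild type roots and 0.828 to 1.09 CPM in opt3-2 roots, again overlapping (log2 0.14 ± 0.20, interval -0.30 to 0.58).

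On the columns with run suffixes 2 and 3 alone, which both genotypes share, wild type kept 2 shoot libraries and 1 root library, so the lone root library is assumed to vary like the other groups. There CAT1 and sAPX remained called in roots and CAT1, CAT3 and APX1 in shoots. CAT2 was at log2 0.31 in shoots (adjusted p = 0.0828) and -0.25 in roots (0.285), APX1 at 0.43 in roots (0.0741), APX2 at 2.96 in roots (0.0609), APX3 at 0.15 in shoots (0.150), sAPX at 0.24 in shoots (0.159), and CAT3 at -0.18 in roots (0.442).

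**Figure D2:**
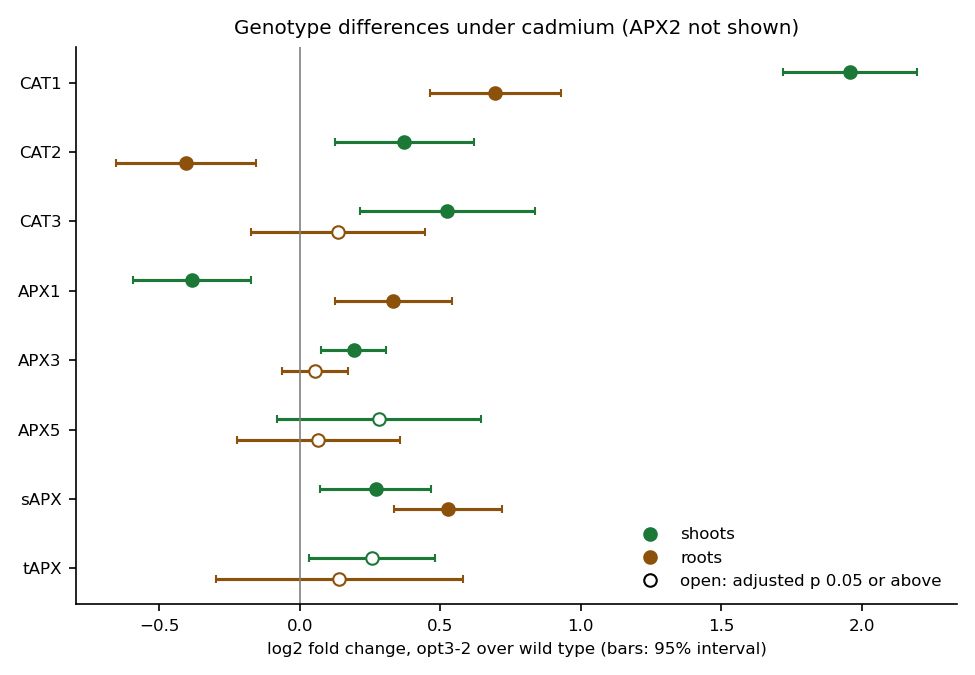
The horizontal axis gives the log2 fold change of opt3-2 over wild type and each row is 1 gene, with shoots and roots drawn separately. Bars are 95% intervals from the edgeR fit and filled points have an adjusted p below 0.05. CAT2 and APX1 lie on opposite sides of 0 in shoots and roots, and CAT1 lies farthest right at 1.96 in shoots.

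Whether the mutant difference itself differed between the organs was tested as an interaction, the root difference minus the shoot difference. The fit called 4 of 9 members, 2 with a higher value in roots (APX1 and APX2) and 2 with a lower one (CAT1 and CAT2), while 48.2% of all genes were called, 24.2% higher and 24.0% lower. CAT1 rose in both organs but less in roots (log2 -1.26 ± 0.15, adjusted p = 4.59e-05 in edgeR). CAT2 rose in shoots and fell in roots (-0.78 ± 0.16, adjusted p = 0.00179), and APX1 did the reverse (0.72 ± 0.13, adjusted p = 0.00102). APX2 passed the filter only through opt3-2 roots and had 0 counts in opt3-2 shoots, so its call is a description and no support. On shared run suffixes the interaction missed the threshold for CAT2 (log2 -0.56, adjusted p = 0.0523) and APX2 (6.64, 0.0654).

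CAT3 (-0.39 ± 0.20), APX3 (-0.14 ± 0.08), APX5 (-0.22 ± 0.21), sAPX (0.26 ± 0.13) and tAPX (-0.12 ± 0.23) did not pass that test. Their intervals run from -0.83 to 0.05 for CAT3 and from -0.02 to 0.53 for sAPX. CAT3 passed with shared run suffixes alone (adjusted p = 0.0187), APX3 without wild type shoot replicate 2 (0.0402) and sAPX without opt3-2 shoot replicate 1 (0.0376).

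The comparison of organs asks where each gene's transcript was higher. CAT2, CAT3, APX3 and tAPX were higher in leaves and APX1, APX5 and sAPX were higher in roots. In wild type 3 members were higher in roots, 4 lower and 2 did not pass. In opt3-2 4 were higher and 5 lower. The 4 include APX2, which passed the filter on low counts through opt3-2 roots, so its call is a description. Over all genes 78.0% were called in wild type (39.5% higher in roots, 38.6% lower) and 84.6% in opt3-2 (43.6% and 41.0%).

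tAPX, the thylakoid form, was 80.4-fold lower in wild type roots than in wild type shoots (log2 -6.33 ± 0.14, adjusted p = 9.81e-13 in edgeR) and 87.2-fold lower in opt3-2. In the same wild type libraries CAT3 was lower in roots by 5.97-fold (log2 -2.58 ± 0.15), CAT2 by 3.82-fold (-1.93 ± 0.12) and APX3 by 2.75-fold (-1.46 ± 0.05). APX5 was 2.73-fold higher in wild type roots (1.45 ± 0.15), APX1 1.79-fold (0.84 ± 0.10) and sAPX 1.56-fold (0.64 ± 0.09).

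The organ difference of CAT1 changed with genotype, as the interaction above showed. In wild type it did not pass (log2 -0.01 ± 0.11, interval -0.24 to 0.23), and in opt3-2 it was 2.41-fold lower in roots (-1.27 ± 0.11, adjusted p = 2.03e-07 in edgeR). With library sizes alone as scaling, which moves the median of all genes between wild type organs by 0.37 on the log2 scale, CAT1 was higher in wild type roots (log2 0.35, adjusted p = 0.00678). APX2 had 15, 32 and 35 counts in the opt3-2 root libraries and 0 in each opt3-2 shoot library.

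The order of the group levels followed from these values. CAT2 was highest in opt3-2 shoots, then wild type shoots, wild type roots and opt3-2 roots, and APX1 ran exactly the other way, with no neighbours in either order overlapping. sAPX fell from opt3-2 roots over wild type roots and opt3-2 shoots to wild type shoots, again without overlap, and APX3 from opt3-2 shoots over wild type shoots and opt3-2 roots to wild type roots. In CAT1 the wild type shoots and wild type roots, at the bottom of the order, overlapped. In CAT3 and tAPX the root groups overlapped at the bottom, in APX5 they overlapped at the top, and in APX2 both wild type groups overlapped.

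Levels of different genes were compared as CPM per kb of exon, with all annotated exons of a gene joined. Joined exons came to 3385 bases in CAT3 (6 annotated transcripts), 2767 in CAT2 (3), 2226 in CAT1 (1) and 1790 in APX1 (8). Such a length can exceed that of the transcripts present, by amounts that differ between genes. Ratios and shares between genes on this scale are therefore approximate. In wild type shoots CAT3 reached 1758 ± 25.5 CPM per kb (SD, n = 3), CAT2 346 ± 26.0, APX1 154 ± 21.3 and APX3 132 ± 8.12, while tAPX stood at 28.6 ± 1.22, sAPX at 17.2 ± 1.32 and CAT1 at 14.5 ± 1.65. In opt3-2 roots APX1, at 347 ± 17.3 CPM per kb, and CAT3, at 324 ± 33.7, were about level, and in wild type roots the values were 276 ± 15.5 and 294.5 ± 63.0. CAT1 thus remained the smallest of the catalases in all groups, including opt3-2 shoots, where it reached 56.4 ± 2.53 CPM per kb.

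Summed over CAT1, CAT2 and CAT3, catalase transcript stood at 2145, 2144 and 2065 CPM per kb in wild type shoots and at 2870.0, 3208 and 3025 CPM per kb in opt3-2 shoots. In roots the sum was 366, 367 and 466 CPM per kb in wild type and 377, 423 and 447 CPM per kb in opt3-2. The shoot groups were separate and the root groups overlapped. CAT1 made up 0.628% to 0.766% of the sum in wild type shoots and 1.77% to 2.04% in opt3-2 shoots.

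The balance of CAT3 and CAT2 also varied. In wild type roots there were 2.52, 2.99 and 4.40 units of CAT3 per unit of CAT2 on the per-length scale, and in opt3-2 roots 4.33, 4.75 and 5.10. Wild type root replicate 3, with the value 4.40, fell within the opt3-2 range. In shoots the opt3-2 ratios, 4.43 to 6.99, reached beyond the wild type ratios, 4.74 to 5.43, on both sides.

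**Figure D3:**
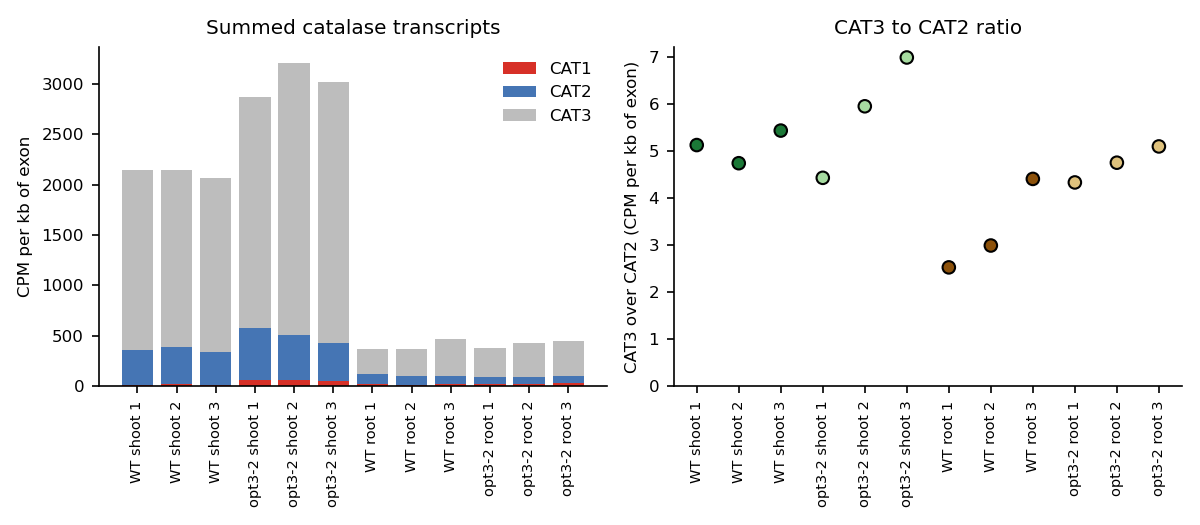
The left panel stacks CAT1, CAT2 and CAT3 in CPM per kb of exon for each of the 12 libraries, and the right panel gives the ratio of CAT3 to CAT2 on the same scale. The opt3-2 shoot bars reach 2870.0 to 3208 CPM per kb, above all others, and wild type root replicate 3 (ratio 4.40) sits with the opt3-2 roots.

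Among ascorbate peroxidases APX1 took a larger share in roots than in shoots. On the per-length scale APX1 made up 41.9% to 49.97% of the 6 genes' sum in wild type shoots and 34.9% to 37.6% in opt3-2 shoots, while APX3 made up 36.7% to 43.6% and 44.6% to 48.5%. In roots APX1 made up 77.3% to 79.6% over both genotypes. tAPX exceeded sAPX in every shoot library, by 1.45 to 1.91 times, and stood at 0.00779 to 0.0170 of sAPX in roots.

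Technical replicates of most members were tight. Between technical replicates of a library the median coefficient of variation was 0.399% for CAT3, 1.15% for APX1 and 2.85% for CAT1. Between biological replicates the medians over groups were 9.36%, 6.01% and 9.23%. The largest value of any group was 21.4% for CAT3, 16.3% for CAT2, 14.4% for CAT1, 13.9% for APX1 and 27.8% for tAPX. It was 6.14% for APX3, 10.5% for APX5, 10.1% for sAPX and 44.3% for the scarce APX2. For APX5 (21.1% technical) and APX2 (91.7%) counting noise of single technical columns was large. Columns were summed for all genes because the labels give them as technical replicates of the same biological replicate. The labels call the replicates biological without stating separate growth batches.

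Of the other enzymes of the ascorbate-glutathione cycle, 10 were tested. In shoots 2 rose, 5 fell and 3 did not pass (median log2 -0.27), and in roots 5 rose, 0 fell and 5 did not pass (median 0.38). The 7 of 10 called in shoots and 5 of 10 in roots stand beside 43.9% and 39.0% of all genes, and these shares are the background for the lists that follow too. MDAR3, a cytosolic monodehydroascorbate reductase, stood at 83.0, 51.3 and 74.2 CPM in wild type shoots and at 5.01, 3.68 and 6.40 CPM in opt3-2 shoots, a fall by 3.78 on the log2 scale (SE 0.30, adjusted p = 9.32e-06 in edgeR). In roots it stood at 110, 94.7 and 97.5 CPM in wild type and at 275, 158 and 156 CPM in opt3-2. There MDAR3 rose by log2 0.96 ± 0.25 (adjusted p = 0.0109), and the shoot and root differences were themselves different (interaction 4.74, adjusted p = 8.95e-06).

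DHAR1, a dehydroascorbate reductase, fell in shoots from 617 ± 108 to 283 ± 36.6 CPM (log2 -1.13 ± 0.13) and MDAR4, the peroxisomal membrane form of monodehydroascorbate reductase, rose from 184 ± 9.35 to 266 ± 13.3 CPM (0.53 ± 0.06). In roots MDAR1 (0.82 ± 0.07), DHAR2 (0.67 ± 0.07) and the cytosolic glutathione reductase GR1 (0.58 ± 0.09) rose. All 10 cycle genes passed the interaction test, 7 higher in roots and 3 lower, where 48.2% of all genes did.

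**Figure D4:**
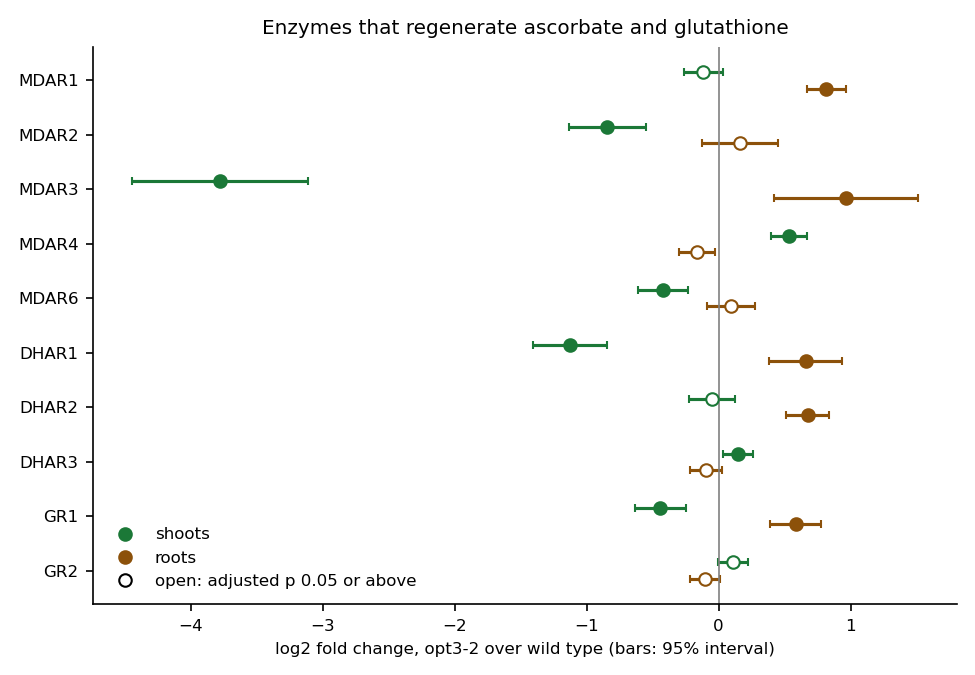
The horizontal axis gives the log2 fold change of opt3-2 over wild type for 10 reductases of the cycle, in shoots and in roots, with 95% intervals from the edgeR fit. Filled points have an adjusted p below 0.05. MDAR3 lies at -3.78 in shoots and 0.96 in roots, and no gene falls in roots past the threshold.

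Thiol peroxidases, which reduce peroxide with thioredoxin instead of ascorbate, showed no common direction. Of 17 genes 16 were tested, with 3 higher, 5 lower and 8 not passed in shoots (median log2 -0.06) and 3 higher, 4 lower and 9 not passed in roots (median 0.06), shares near those of all genes (43.9% and 39.0%). In shoots GPX1 of plastids rose (0.50 ± 0.07) and GPX8 (-0.65 ± 0.08) and GPX3 (-0.46 ± 0.10) fell. In roots GPX6 (0.38 ± 0.06) and the low PRXQ (0.93 ± 0.19) rose and GPX1 (-0.39 ± 0.08) fell. Of 7 genes of ascorbate synthesis 2 rose and 2 fell in shoots (median 0.13) and 2 rose and 1 fell in roots (median 0.14), beside 43.9% and 39.0% of all genes. VTC1, which makes GDP-mannose, fell in shoots (-0.53 ± 0.07) and rose in roots (0.41 ± 0.07), VTC4 rose in both (0.33 ± 0.08 and 0.59 ± 0.08), GLDH fell in shoots (-0.46 ± 0.09) and GALDH fell in roots (-0.21 ± 0.07).

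Glycolate oxidases and related 2-hydroxy acid oxidases make the peroxide that peroxisomal catalase removes. Of 5 genes 3 rose and 1 fell in shoots (median 0.28), and 1 rose and 2 fell in roots (median -0.01), where 43.9% and 39.0% of all genes were called. GOX2 rose in shoots from 495 ± 39.9 to 621 ± 49.6 CPM (log2 0.33 ± 0.08) and fell in roots from 37.1 ± 2.33 to 10.3 ± 0.336 CPM (-1.85 ± 0.09, adjusted p = 6.57e-08 in edgeR). It is a close relative and neighbour of GOX1, so the division of reads between them is uncertain. GOX3 fell in shoots (-2.23 ± 0.27), and HAOX2 rose in shoots (0.28 ± 0.07) and fell in roots (-0.59 ± 0.08), where HAOX1 rose (0.23 ± 0.07).

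Of 12 regulators of these genes or proteins 3 rose and 0 fell in shoots (median 0.01), and 4 rose and 3 fell in roots (median 0.04), against 43.9% and 39.0% of all genes called. NCA1, a chaperone that catalase needs for activity, rose in shoots from 187 ± 5.41 to 267 ± 11.5 CPM (log2 0.52 ± 0.05, adjusted p = 2.49e-05 in edgeR), as did HSFA1B (0.39 ± 0.07) and HSFA1A (0.29 ± 0.09). HSFA2, a heat shock factor known to act on APX2, stood at 5.79, 6.46 and 6.61 CPM in wild type roots and at 14.4, 16.9 and 16.8 CPM in opt3-2 roots. HSFA2 rose in roots (1.35 ± 0.15, adjusted p = 4.33e-05). In shoots it stood between 0.496 and 1.03 CPM and did not pass (-0.04 ± 0.27), and the organs differed in this (interaction 1.39 ± 0.31, adjusted p = 0.00313). HSFA1E rose in roots (0.57 ± 0.09) and GBF1, a G-box factor known to repress CAT2, fell (-0.35 ± 0.06).

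The remaining APX-related genes are APX6, which rose in shoots (0.57 ± 0.07) and fell in roots (-0.36 ± 0.08), and APX4, a thylakoid lumen protein also named TL29, which passed in neither (0.23 ± 0.12 and 0.05 ± 0.22).

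The genes most like each member were sought by the root mean square difference of log2 CPM, centred on each gene's mean, over the 12 libraries and 16441 genes that averaged 5 CPM or more. For CAT1 they were IMD1 (0.27) and the ferritin FER3 (0.30), against a median of 0.96 over all candidates. For APX2 they were the small heat shock gene HSP18.2 (0.43) and AT3G07720 (0.49), against 1.55. Closer matches were found for APX3, with the subtilase ARA12 (0.05) and the carotenoid isomerase CRTISO (0.07), and for APX1, with the phosphoglycerate kinase PGK (0.06) and the cyclophilin ROC5 (0.07). CAT2 was nearest to SEP2 (0.11) and AT1G55960 (0.12), CAT3 to AT2G04230 and RCP1 (both 0.12), APX5 to PBL1 (0.09) and the cyclin CYCD3;3 (0.10), sAPX to AT5G40640 (0.12) and HCT (0.13), and tAPX to PnsL2 (0.11) and FNR1 (0.13). Such likeness describes 12 libraries that share the same 4 groups.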

How the data were processed

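The authors deposited whole-number read counts per gene without normalization, 36 columns for 28775 genes. TopHat2, edgeR and TAIR10 are named per the submitters' processing notes. Sources used here do not name the counting tool, annotation release, strand setting or handling of multi-mapped reads. Per the labels, 3 technical replicates belong to each biological replicate, and their counts were summed to 12 libraries.

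In edgeR 4.0.16 (R 4.3.3), filterByExpr kept 21887 genes, and TMM scaling, a group-means model (8 residual degrees of freedom) and robust quasi-likelihood tests were used, two-sided. p-values were Benjamini-Hochberg adjusted over all genes. Each standard error was derived from the log2 fold change and its F statistic, and 95% intervals use the fit's degrees of freedom. The tests were tried on counts simulated from the gene means and dispersions of these data. That trial checks the code and cannot show how well the model suits the real counts. A count of 3 is the floor, for counting error only.

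Members and lists were chosen with earlier results of these data known. All 9 members are named, with up to 3 genes per list of smallest p in each organ, and the 2 nearest patterns per member (log2 CPM, prior count 2). RefSeq TAIR10.1 gave names (28009 of 28775 codes) and sequence, and lists 7 of the 73 names used neither as symbol nor as synonym. Alternatives were RLE or no scaling factors, no filter, DESeq2 1.42.0, limma-voom (limma 3.58.1), a replicate block, fewer libraries or columns.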

Additional observations from a re-analysis of the deposited data

Results flagged for a closer look

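For CAT1, CAT2 and APX1 the opt3-2 difference in roots was not the same as in shoots by the interaction test of edgeR, as for 48.2% of all genes. CAT1 differed by log2 -1.26 ± 0.15 (adjusted p = 4.59e-05), with a rise in all 3 opt3-2 libraries of both organs. CAT2 differed by -0.78 ± 0.16 (adjusted p = 0.00179). It was higher in 3 of 3 opt3-2 shoots, and lower in 3 of 3 opt3-2 roots, than all wild type libraries of the organ. On shared run suffixes, with a lone wild type root library, the CAT2 value was -0.56. The CAT2 call was lost in shoots without opt3-2 shoot replicate 1 and in roots without wild type root replicate 1. APX1 differed by 0.72 ± 0.13 (adjusted p = 0.00102), with directions opposite to those of CAT2 in 3 of 3 libraries of each organ. The fit also gave APX2 a value of 7.78 ± 1.46 (adjusted p = 0.00158), but APX2 passed the filter on low counts only through opt3-2 roots and had 0 counts in opt3-2 shoots, so this is a description and neither a bound nor support.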

How the results depend on the processing

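Counts of members called kept within 1.5 times of the reported ones under most settings, and CAT1 was called in shoots and roots under all of them. In shoots the 7 members called became 4 with library sizes alone, 3 with run suffixes 2 and 3 only and 3 to 8 when single libraries were left out, with 3 without wild type shoot replicate 3 and 4 without opt3-2 shoot replicate 1. In roots 5 became 2 with those suffixes and 4 to 5 without single libraries. The interaction count was 3 to 5, and the organ counts were 7 to 8 in wild type and 9 in opt3-2. The replicate block left 7, 5 and 4 members called in shoots, roots and interaction. Replicate numbers are shared only by name: deviations of same-numbered libraries correlated at -0.31 to 0.13, so the numbers were not taken to pair libraries.

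Among members, signs turned only for differences that had not passed. CAT1 between wild type organs, -0.01, became 0.0232 with RLE factors, 0.0252 with DESeq2, 0.35 with library sizes alone, 0.0438 with technical replicate 1 alone, 0.13 with shared suffixes and -0.0852 to 0.11 without single libraries. APX2 in that contrast, 0.09, became -0.0130 with limma-voom, -0.20 with technical replicate 1 and -0.21 to 0.40 without single libraries. In roots CAT3 became -0.18 and tAPX -0.42 with shared suffixes, and without single libraries tAPX ran from -0.0760 to 0.30 and APX5 from -0.00536 to 0.15. With technical replicate 1 alone tAPX kept its sign in roots but rose to 1.17 and passed (edgeR adjusted p = 0.0364). The tAPX interaction became 0.93 with technical replicate 1 and ran from -0.33 to 0.0385 without single libraries. The causes were not tested. Depth limits APX2, tAPX in roots and APX5, and p-values measure the spread between these samples alone.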
